A study of Mus musculus with 23 samples.

Results

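The liver serpins described here are Serpina3n, Serpina3m, Serpina6, Serpina7, Serpina10, Serpinc1, Serpind1 and Serpinf2, chosen by gene symbol. Of these 8 genes, 7 had a feature on the array, 1 each, among 18688 features with a listed gene. Serpina3m had no feature under that symbol and is not analysed here. The livers came from female C57BL/6 mice that inhaled particles or filtered air for 90 minutes on each of 4 consecutive days. The CB group (8 mice) inhaled Printex 90, a carbon black, and the DEP group (7 mice) inhaled NIST 2975, a diesel exhaust particle standard, both at 20 mg/m3. The Air group (8 mice) inhaled filtered air only. The labels give an age of 12 to 13 weeks and liver collection 90 minutes after the last exposure, whereas the study's methods give a slightly younger age and a shorter interval. Each liver RNA, labelled with Cy5, was hybridised to its own array beside a universal mouse reference RNA labelled with Cy3. A log2 ratio is therefore liver over reference, and no array had its dyes swapped.

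Serpins are a family of plasma and tissue proteins that mostly inhibit serine proteases by offering a reactive loop as bait and trapping the protease that cleaves it. The hepatocyte is the main source of those that circulate. Serpinc1 (antithrombin) and Serpind1 (heparin cofactor II) block thrombin, Serpina10 (the protein Z-dependent protease inhibitor) blocks activated factor X, and Serpinf2 (alpha-2-antiplasmin) blocks plasmin. Serpina6 (corticosteroid-binding globulin) and Serpina7 (thyroxine-binding globulin) keep the fold but carry hormones instead of inhibiting proteases. Serpina3n is a mouse inhibitor of granzyme B and neutrophil proteases and an acute phase gene.

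In mouse assembly GRCm38.p6 Serpina10 (chr12:103616675-103631490), Serpina6 (chr12:103646630-103657218) and Serpina3n (chr12:104406646-104414334) lay near each other on chromosome 12. Serpina7 lay at chrX:139079249-139085236, Serpinc1 at chr1:160978583-161002543, Serpind1 at chr16:17331371-17343574 and Serpinf2 at chr11:75431736-75439501. Serpina3n belongs to a cluster of closely related genes, and whether its feature also bound their RNA could not be read from the files.

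The array medians of Cy5 ran from 268 to 549 in CB, from 312 to 511 in DEP and from 262 to 541.5 in Air, and no 2 arrays held identical values. All 7 serpins were detected in every liver: none was flagged absent in Cy5 on any of the 23 arrays. The Cy5 signal reached the scanner's maximum of 65535 on 6 arrays for Serpina6, 6 for Serpind1, 4 for Serpinc1 and 3 for Serpinf2, where the ratio is a lower limit. In the reference channel Serpina7 was flagged absent on 14 arrays, Serpina10 on 2 and Serpinc1 on 1. The mouse DEP 55 stood apart from its female label in 1 gene: Xist, the transcript of the silenced X chromosome, had a Cy5 signal of 210, flagged absent, against 947.5 to 22287 in the other 22 livers. The Y-linked genes Eif2s3y (Cy5 of 193) and Uty (204.5) were flagged absent in it too, as in 18 of the other 22. Results for DEP are therefore also given without that mouse. Labels name each mouse by a number but nothing more about its origin, so p-values measure the spread between these mice. The groups were spread unevenly over the exposure rounds, with 6 of 8 CB mice in the second and 4 of 7 DEP mice in the third. Exposure and round are therefore partly confounded.

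No serpin changed between exposure groups at an adjusted p under 0.05 in limma's test across the 18688 features (Benjamini-Hochberg). Of the 7 serpins, 4 had a lower mean log2 ratio in CB than in Air and 3 a higher one, with a median difference of -0.29, beside a median of 0.00 over all features. For DEP against Air 5 were lower and 2 higher, with a median of -0.25 beside 0.00. Neither comparison called any feature of the array (0%), and at an unadjusted p under 0.05 it listed 3 serpins of 7 for CB (Serpina6, Serpinc1 and Serpinf2), where 5.94% of all features passed, and 3 of 7 for DEP (Serpina6, Serpina7 and Serpinf2), where 4.82% passed. Between CB and DEP the test called 0 features (0%), and 1 serpin, Serpinc1, passed the unadjusted limit, where 3.44% of all features did. Lower liver RNA for a hepatocyte gene cannot be told apart here from fewer hepatocytes in the sample. The 11 measured hepatocyte markers, none absent on any array, had a mean log2 ratio of 4.04 to 4.89 in CB, 4.25 to 4.86 in DEP and 4.52 to 5.06 in Air, but 9 of the 11 were saturated in Cy5 on 1 or more arrays and 3 of them on all 23, so that these means are limits. The 2 never saturated, Ass1 and Ttr, differed from Air by 0.14 and -0.15 in CB and by 0.18 and -0.03 in DEP. The 3 erythroid markers, likewise never absent, averaged 2.69 to 3.61 in CB, 2.68 to 3.64 in DEP and 3.33 to 3.83 in Air. Cy5 of Hba-a1 was at the scanner's maximum throughout, and that of Hbb-b2 in 9 mice. Alas2, never saturated, differed from Air by -0.10 in CB and -0.19 in DEP. The part of either list in the serpin values was not tested.

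**Figure D1:**
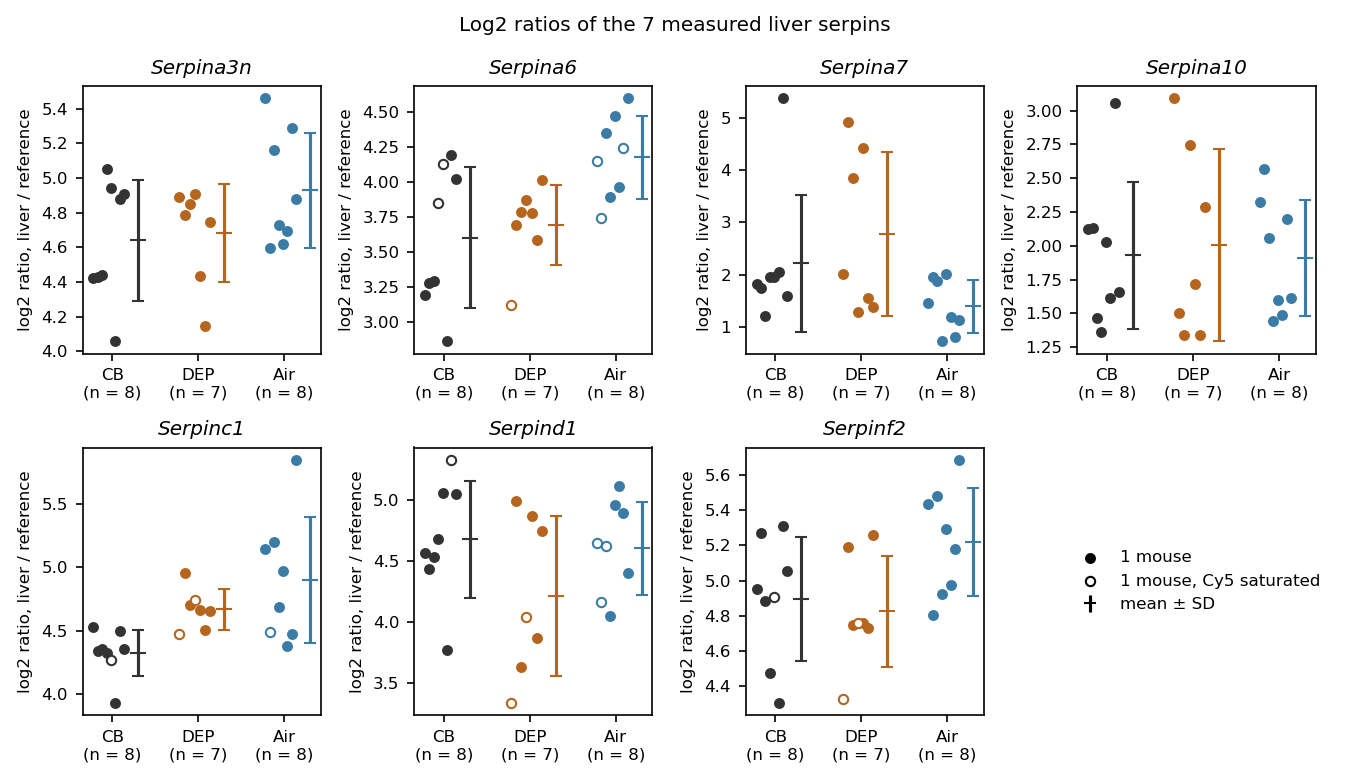
Log2 ratio of liver over reference for the 7 measured serpins, 1 point per mouse, in CB (n = 8), DEP (n = 7) and Air (n = 8), with mean ± SD beside each group and open points where Cy5 was saturated. The groups overlap for every gene. For Serpinc1 6 of 8 CB mice lie below all Air mice, 1 of them with Cy5 saturated, and for Serpina7 4 mice stand far above the other 19.

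Among the inhibitors of clotting and of clot breakdown, Serpinc1 showed the largest difference between CB and Air. Its log2 ratio ran from 3.93 to 4.53 with a median of 4.35 in CB, from 4.47 to 4.96 with a median of 4.66 in DEP and from 4.38 to 5.85 with a median of 4.83 in Air. All 8 CB mice lay below the Air median and 6 lay below the lowest Air mouse. Cy5 was saturated in 1 CB, 2 DEP and 1 Air mouse. The one in CB was CB 59 at 4.27, a lower limit that is counted among the 6. The lowest DEP value, 4.47 in DEP 51, is a lower limit too. The mean was 4.32 ± 0.18 in CB (SD, n = 8) and 4.90 ± 0.50 in Air (SD, n = 8), a difference of -0.57 (SE 0.15, limma adjusted p = 0.621). DEP against Air differed by -0.23 (SE 0.16, limma adjusted p = 0.997), and CB against DEP by -0.35 (SE 0.16, limma adjusted p = 1.00). One Air mouse weighed on these values: in Air 443 the spot was dim in both channels, with a Cy5 of 5125.5 and a Cy3 of 111 that was flagged absent, and its ratio of 5.85 was the highest. Without it the difference was -0.44 for CB and -0.09 for DEP. Within the second exposure round, one of 3 separate rounds in the labels, CB differed from Air by -0.34, and in the last round, which held 1 CB mouse, by -0.74.

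Serpinf2 had a log2 ratio of 4.30 to 5.31 with a median of 4.93 in CB, 4.33 to 5.26 with a median of 4.76 in DEP and 4.81 to 5.69 with a median of 5.24 in Air. The groups overlapped, but 5 of 7 DEP mice and 2 of 8 CB mice lay below the lowest Air mouse. Saturated spots numbered 1 in CB, 2 in DEP and 0 in Air. Those in DEP were DEP 51 at 4.33 and DEP 57 at 4.76, lower limits that are counted among the mice below Air. The mean differed from Air by -0.33 in CB (SE 0.15, limma adjusted p = 0.838) and by -0.40 in DEP (SE 0.16, limma adjusted p = 0.997). In the second round alone, which held 2 DEP mice, these differences were -0.16 and -0.08.

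Serpind1 was spread widely within each group. Its log2 ratio ran from 3.77 to 5.33 with a median of 4.63 in CB, from 3.34 to 4.99 with a median of 4.05 in DEP and from 4.05 to 5.11 with a median of 4.64 in Air. Cy5 was saturated in 1 CB, 2 DEP and 3 Air mice. Those in DEP were DEP 51 at 3.34 and DEP 57 at 4.05, so that the lowest value and the median of DEP are lower limits. CB differed from Air by 0.07 (SE 0.23) and DEP from Air by -0.39 (SE 0.24), with limma adjusted p = 0.978 and 0.997. CB stood above DEP by 0.46 (SE 0.24, limma adjusted p = 1.00). In the last round alone, which held 1 CB mouse, the CB difference from Air was -1.26. Without DEP 51, one of the arrays saturated at this spot, the DEP difference was -0.25. The spot was also dim in both channels in DEP 56, with a Cy5 of 2741 and a Cy3 of 197, and in CB 59, with 9967 and 289.

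Serpina10 had overlapping groups throughout. Its log2 ratio was 1.36 to 3.06 with a median of 1.84 in CB, 1.34 to 3.09 with a median of 1.72 in DEP and 1.44 to 2.57 with a median of 1.84 in Air. The difference from Air was 0.02 in CB (95% interval -0.51 to 0.55) and 0.09 in DEP (-0.46 to 0.64), with limma adjusted p = 0.995 and 0.997. The highest values were those of DEP 51 at 3.09 and CB 445 at 3.06, and the CB difference was -0.14 without CB 445.

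Of the hormone carriers, Serpina6 had a lower mean in both exposed groups than in Air, past no adjusted limit. Its log2 ratio was 2.86 to 4.19 with a median of 3.57 in CB, 3.12 to 4.01 with a median of 3.78 in DEP and 3.74 to 4.60 with a median of 4.196 in Air. Every mouse of CB and of DEP lay below the Air median, and 4 of 8 CB and 3 of 7 DEP mice lay below the lowest Air mouse. The mean was 3.60 ± 0.51 in CB (SD, n = 8), 3.69 ± 0.29 in DEP (SD, n = 7) and 4.18 ± 0.30 in Air (SD, n = 8). The difference from Air was -0.57 in CB (SE 0.18, limma adjusted p = 0.634) and -0.48 in DEP (SE 0.18, limma adjusted p = 0.997). In the second round alone, with 6 CB, 2 DEP and 4 Air mice, it was -0.38 in CB and -0.11 in DEP. In the last round, with 1 CB, 4 DEP and 2 Air mice, it was -1.36 and -0.63, so that the CB value is that of 1 mouse. Saturated spots numbered 2 in CB, 1 in DEP and 3 in Air. The one in DEP was DEP 51 at 3.12, a lower limit that is counted among the mice below Air. The lowest Air mouse, Air 50 at 3.74, was saturated too. CB and DEP share the same Air mice, so that their differences from Air are not independent.

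Leaving out DEP 55 called no serpin in the DEP comparison. The difference of DEP from Air was then -0.48 for Serpina6, -0.46 for Serpinf2, -0.52 for Serpind1, -0.28 for Serpinc1, -0.27 for Serpina3n and 0.18 for Serpina10.

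Serpina7 was the serpin that varied most from mouse to mouse, and it did so through a few animals. In CB the Cy5 signal was 395 to 14665 with a median of 694.5, in DEP 491 to 9301 with a median of 1169.5 and in Air 363 to 943 with a median of 524.5. Its log2 ratio was 1.21 to 5.37 with a median of 1.89 in CB, 1.28 to 4.92 with a median of 2.02 in DEP and 0.73 to 2.02 with a median of 1.32 in Air. The 4 highest ratios were 5.37 in CB 445, 4.92 in DEP 55, 4.42 in DEP 835434 and 3.84 in DEP 56, followed by a gap of 1.79 to the next mouse. Their Cy5 signals were 14665, 9301, 8144.5 and 3553, where the other 19 mice had 363 to 1195. The Cy3 signals of the same spots were 445, 280, 314.5 and 231, so that the high ratios were carried by Cy5. These mice were CB 445 and DEP 55 from the first exposure round, DEP 56 from the second and DEP 835434 from the third. None was an Air mouse, and DEP 55 is the animal in which Xist was flagged absent.

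The group means of Serpina7 were 2.21 ± 1.30 in CB (SD, n = 8), 2.77 ± 1.57 in DEP (SD, n = 7) and 1.39 ± 0.51 in Air (SD, n = 8). CB differed from Air by 0.82 (SE 0.54, limma adjusted p = 0.888). DEP differed from Air by 1.38 (SE 0.56, limma adjusted p = 0.997). For CB against DEP the difference was -0.56. Without CB 445 the CB difference was 0.37, and without DEP 55 the DEP difference was 1.02. With the 14 spots flagged absent in Cy3 left out, which dropped 5 CB, 3 DEP and 6 Air mice, the differences were 1.55 and 2.50. The 4 mice with the highest ratios were all kept, so that these larger differences give no added support.

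**Figure D2:**
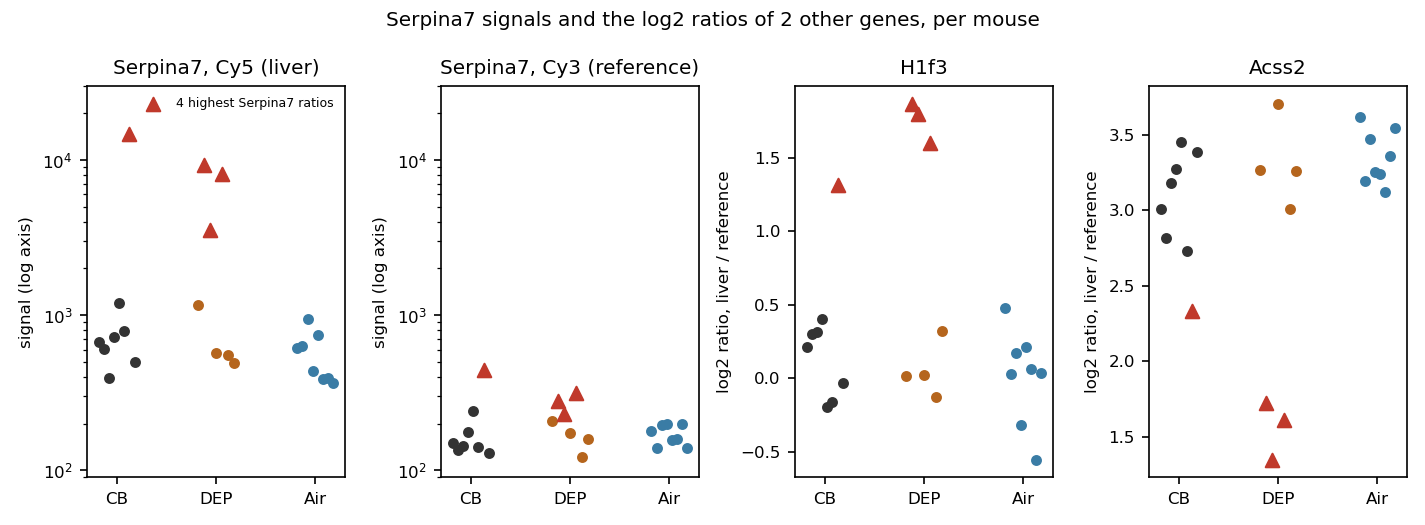
Serpina7 signal in Cy5 (liver) and Cy3 (reference) on log axes, and the log2 ratios of H1f3 and Acss2, 1 point per mouse in CB, DEP and Air, with red triangles for the 4 mice with the highest Serpina7 ratios. The 4 triangles lie between 3553 and 14665 in Cy5, the other 19 mice between 363 and 1195, and the same 4 mice are the highest for H1f3 and the lowest for Acss2. H1f3 was flagged absent in Cy5 on 11 arrays, so that its low values lie near background.

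The features whose log2 ratio was most like that of Serpina7 over the 23 mice were H1f3, a linker histone (r = 0.89), Neat1, a nuclear long noncoding RNA (r = 0.86), and Irak2, a kinase of interleukin-1 receptor signalling (r = 0.83). For each of them the 4 highest mice were the 4 with the highest Serpina7. H1f3 was at 1.32 to 1.87 in those and at -0.55 to 0.48 in the rest, with Cy5 flagged absent on 11 of the 23 arrays, and Irak2 was at 1.06 to 1.15 and at -0.39 to 0.67. The values form separate clusters, so that r only ranks the features, and no test was made.

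The 250 bases before the upstream RefSeq start site of Serpina7 are shown because this gene alone among the serpins with a listed promoter held a match to the motifs searched. They come from RefSeq (GRCm38.p6, chrX:139085237-139085486, minus strand), and capitals mark the matches.
Serpina7: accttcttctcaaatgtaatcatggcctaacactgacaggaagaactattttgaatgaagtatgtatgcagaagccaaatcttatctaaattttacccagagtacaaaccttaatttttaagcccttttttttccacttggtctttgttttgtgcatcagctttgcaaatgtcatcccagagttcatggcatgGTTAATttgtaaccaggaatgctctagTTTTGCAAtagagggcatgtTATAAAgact
The first match was GTTAAT, a core of the HNF1 site, at bases -57 to -52 from the start. The second was TTTTGCAA, which is TTGCNNAA (a C/EBP site) read on the opposite strand, at -30 to -23. The third was the TATA box, spelled TATAAA, from -10 to -5, or at -27 to -22 from the gene's other start site. Searched on both strands, these motifs occurred in 6.43%, 9.56% and 12.4% of 32851 promoter windows of this length, and TTCNNNGAA (a STAT site), in 7.02%. The listed windows of Serpina3n, Serpinc1, Serpind1 and Serpinf2 held none of the 4 as spelled. RefSeq promoters were matched for 5 of the 8 genes.

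Serpina3n, the acute phase member, had a lower mean in both exposed groups than in Air, by less than the spread between mice. Its log2 ratio was 4.06 to 5.05 with a median of 4.66 in CB, 4.15 to 4.91 with a median of 4.79 in DEP and 4.60 to 5.46 with a median of 4.80 in Air. The difference from Air was -0.29 in CB (95% interval -0.61 to 0.03, limma adjusted p = 0.872) and -0.25 in DEP (-0.58 to 0.08, limma adjusted p = 0.997). The spot was never saturated, with a Cy5 of 12563.5 to 51953 in CB, 12350 to 59744.5 in DEP and 12319 to 53938 in Air.

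In the liver channel taken alone the mean of Serpinc1 was not lower than in Air, with the dim spot of Air 443 included. For Serpinf2 the sign of the Cy5 difference depended on how that channel was scaled. With log2 Cy5 made comparable between arrays by quantile normalization, the difference of CB from Air was 0.15 for Serpinc1, 0.10 for Serpinf2, -0.07 for Serpina6 and -0.02 for Serpina3n. For DEP it was 0.30, 0.11, -0.40 and -0.19. The normalized log2 Cy5 of Serpinc1 was 13.30 in Air 443 and 15.07 to 15.94 in the other Air mice. It was 14.94 to 15.79 in CB and 15.12 to 15.77 in DEP. Without Air 443 the Air mean lay above the CB mean and slightly below the DEP mean. No fit of Cy5 alone was made without that mouse. With Cy5 scaled to the 75th percentile of each array instead, Serpinf2 differed from Air by -0.00514 in CB and -0.17 in DEP, and Serpinc1 by 0.0790 and 0.0772. None passed an adjusted p under 0.05 in limma (0% of features). At an unadjusted 0.05 no serpin passed for CB (3.5% of features), and for DEP 1 of 7 passed, Serpina7 at 1.77 (4.15% of features). In the reference channel, where every array carried the same RNA, 6 of 7 serpins had a higher Cy3 in CB than in Air. The Cy3 difference of CB from Air was 0.72 for Serpinc1 (95% interval -0.05 to 1.497), 0.48 for Serpina6 (0.04 to 0.93) and 0.36 for Serpinf2 (0.01 to 0.71), with a limma adjusted p = 0.996 for each. Serpina6 and Serpinf2 passed the unadjusted limit, as 3.23% of all features did, and for DEP no serpin did where 3.8% of features passed. For Serpinc1 the value was 0.30 without Air 443. Spots of like brightness shared the lower ratio: of 219 features with a median Cy5 between 24371 and 44879.5, the range of the 5 bright serpins, 91.3% were lower in CB than in Air (median -0.19) and 90.4% lower in DEP (median -0.17). The 5 serpins had a median of -0.33 in CB and -0.39 in DEP. At an unadjusted p under 0.05, 28.3% of the set was lower in CB and 19.6% in DEP. This set was chosen after the values were seen and includes the 5 serpins.

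**Figure D3:**
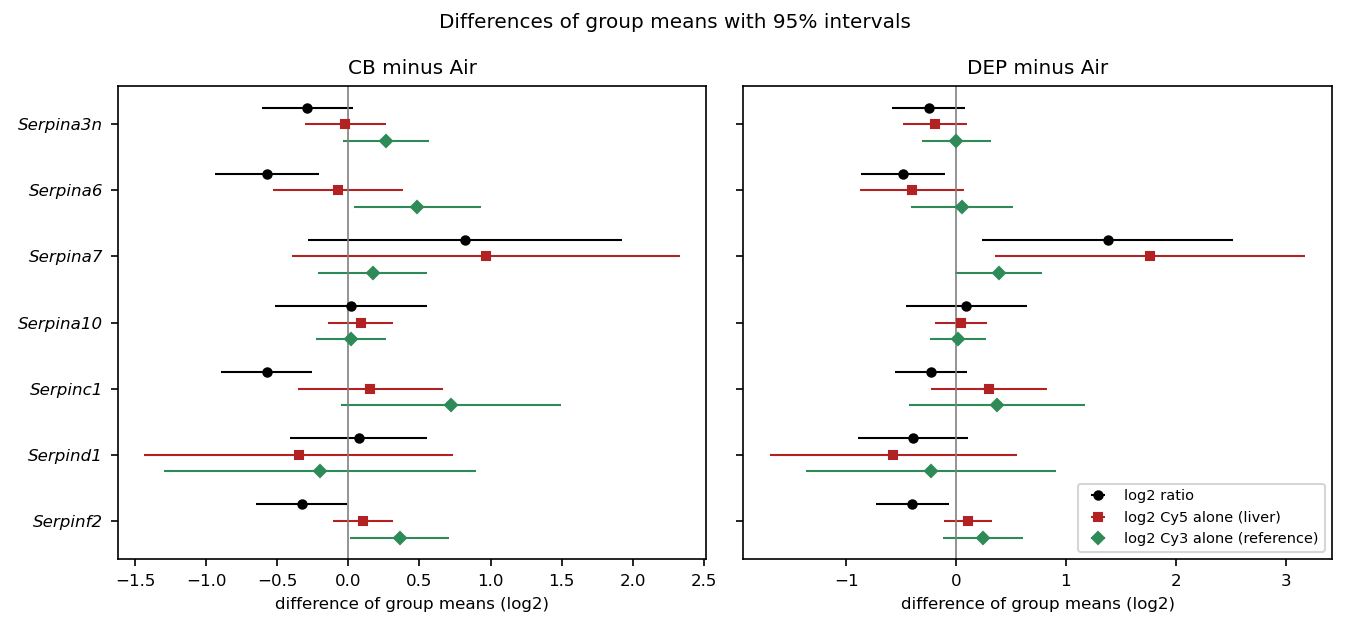
Differences of group means from Air, in log2, for CB (left) and DEP (right), with 95% intervals, from the log2 ratio, from Cy5 alone and from Cy3 alone. For Serpinc1 after CB the ratio lies at -0.57, Cy5 alone at 0.15 and Cy3 alone at 0.72. These values include Air 443, whose spot was dim in both channels.

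Some pairs of serpins moved together from mouse to mouse. Serpina7 was left out because its values form separate clusters, which left 15 pairs. Pearson's r of the log2 ratio ranged from -0.05 to 0.70, and 6 pairs had an adjusted p under 0.05 in a permutation test with 100000 resamples, 5 of them also by Spearman's rho. The share of pairs of other features that would pass was not computed, so the count is not shown to be particular to serpins. The test pooled the exposure groups. Within groups r was 0.60 for Serpina6 with Serpinf2 and 0.70 for Serpinc1 with Serpinf2. Each of these 6 pairs held a serpin whose Cy5 was saturated on some arrays. In DEP 51 Serpina6, Serpinc1, Serpind1 and Serpinf2 were all saturated. The part of saturation in r was not tested. Serpina6 and Serpinf2 gave r = 0.70 (permutation p = 0.0002, adjusted p = 0.0015) and rho = 0.70 (permutation p = 0.00045, adjusted p = 0.00675). Without the 2 mice farthest from the median of Serpina6, r was 0.54, and it was 0.19 within the 12 mice of the second round and 0.98 within the 7 of the third. Serpinc1 and Serpinf2 gave r = 0.70 (permutation p = 0.00016, adjusted p = 0.0015) and rho = 0.51 (permutation p = 0.0141, adjusted p = 0.0423), with r = 0.54 without the 2 farthest mice and 0.46 and 0.73 within the rounds. The first round held 4 mice, too few for a value of its own. Over all 23 mice Serpina10 had r between -0.05 and 0.31 against the other 5, but its values differed between rounds. With Serpinf2 its r was 0.59 in the second round and -0.43 in the third, and with Serpina3n 0.07 and 0.73. In raw log2 Cy5, which also carries the brightness of each array, r ran from 0.24 to 0.91.

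**Figure D4:**
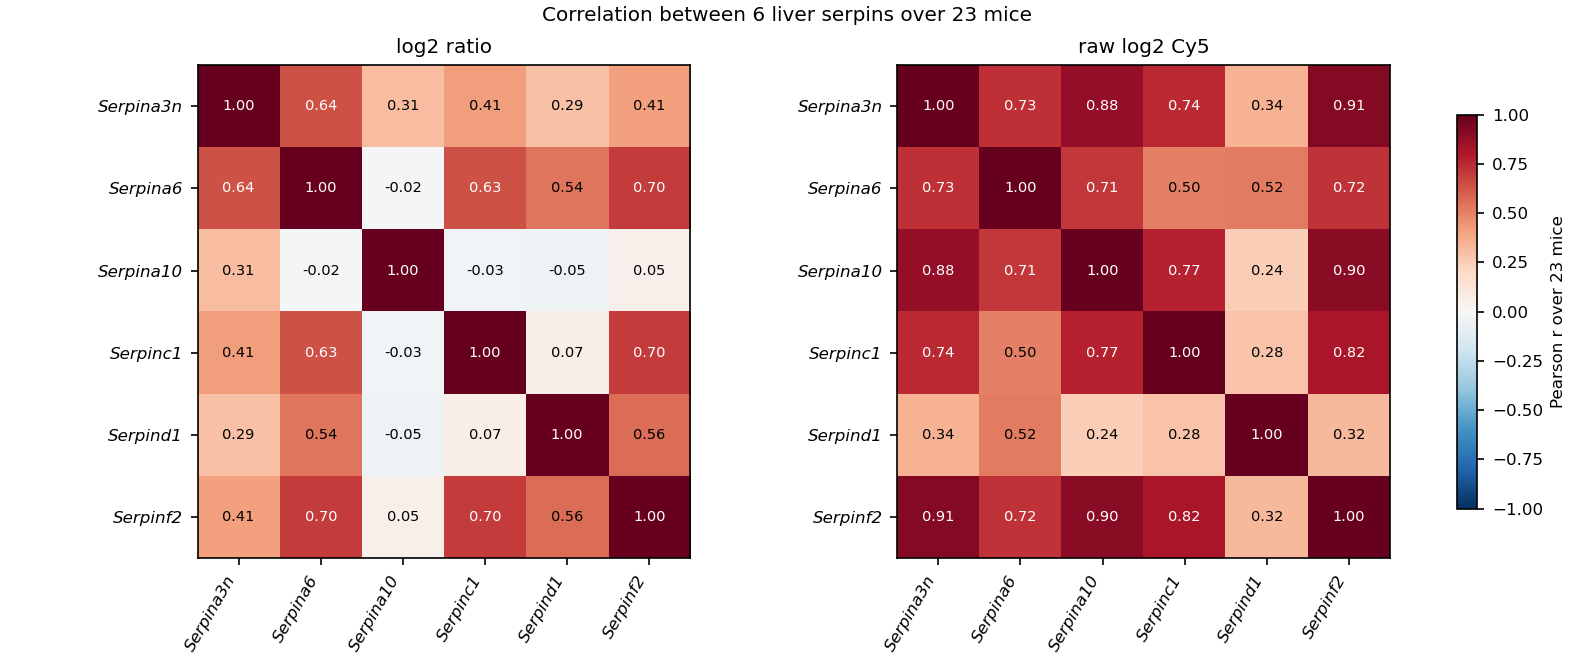
Pearson's r over 23 mice between 6 serpins, for the log2 ratio (left) and for raw log2 Cy5 (right), Serpina7 left out. In the log2 ratio the pairs of Serpinf2 with Serpina6 and with Serpinc1 reach 0.70, and Serpina10 stays between -0.05 and 0.31.

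The promoters of Serpinc1 and Serpinf2 are shown as those of the pair with the highest r for which both were listed. They come from RefSeq (GRCm38.p6), chr1:160978333-160978582 on the plus strand and chr11:75439502-75439751 on the minus strand, the 250 bases before each start site.
Serpinc1: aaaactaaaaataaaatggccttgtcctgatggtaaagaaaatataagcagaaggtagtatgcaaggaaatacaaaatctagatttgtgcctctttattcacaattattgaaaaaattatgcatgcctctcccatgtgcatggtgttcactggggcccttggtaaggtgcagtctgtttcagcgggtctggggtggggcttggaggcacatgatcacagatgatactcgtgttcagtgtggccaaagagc
Serpinf2: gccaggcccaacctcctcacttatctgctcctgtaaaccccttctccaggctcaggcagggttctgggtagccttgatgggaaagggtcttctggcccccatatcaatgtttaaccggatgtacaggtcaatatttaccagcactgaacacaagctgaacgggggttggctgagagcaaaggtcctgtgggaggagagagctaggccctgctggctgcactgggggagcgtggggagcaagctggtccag
Neither holds capitals because none of the 4 motifs was found.

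For the other serpins the features with the most alike log2 ratio over the 23 mice were ranked in the same way. For Serpina6 they were Hpn (hepsin, a hepatocyte surface protease, r = 0.88), Plg (plasminogen, r = 0.88) and Rdh7 (a retinol dehydrogenase, r = 0.85). For Serpinc1 they were Slc38a3 (a glutamine transporter, r = 0.87), Cyp2d11 (r = 0.84) and Pole3 (r = 0.84). For Serpinf2 they were Hsd3b3 (r = 0.78), Serping1 (the C1 inhibitor, another serpin, r = 0.75) and Hbb-b2 (a beta globin, r = 0.75). For Serpind1, Apoa1 was the closest (r = 0.74) but was saturated on 20 arrays. Cy5 was also saturated on 9 arrays for Hbb-b2, 6 for Plg, 5 for Hpn, 4 for Rdh7, 3 for Slc38a3 and 1 for Cyp2d11. For Serpina3n the closest was Ang4 (r = 0.90) and for Serpina10 Sppl2a (r = 0.90). These values share arrays and their brightness and are a description.

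Genes around the serpins gave no call in either comparison, at 0 of those measured in each list. For the counts below, 49.8% of all features were lower in CB than in Air and 50.0% in DEP. Among the 219 features as bright as the 5 bright serpins, these shares were 91.3% and 90.4%. The part of brightness in the counts was not tested. Of the 36 other serpins with a listed symbol on the array (features with no listed gene were not searched), 17 were lower and 19 higher in CB than in Air, with a median of 0.01, and 19 were lower and 17 higher in DEP, with a median of -0.01, but 25 of the 36 were flagged absent in Cy5 on 1 or more arrays and 4 on all 23. Of 17 measured proteases and partners that serpins meet, 15 were lower in CB (median -0.20) and 14 in DEP (median -0.05). Of these 17, 9 were saturated on 1 or more arrays, and of the 8 never saturated 7 were lower in CB and 7 in DEP. Plg, the zymogen whose product Serpinf2 traps, differed from Air by -0.55 in CB (SE 0.15, limma adjusted p = 0.621) and by -0.42 in DEP (SE 0.15, limma adjusted p = 0.997), with Cy5 saturated on 6 arrays. Vtn, vitronectin, was saturated on 21 arrays and is given no difference. Of 23 acute phase genes, 20 were lower in CB and 18 in DEP, with a median of -0.18 in each, and of the 16 never saturated 13 were lower in CB and 11 in DEP. Fgb and Hp (fibrinogen beta chain and haptoglobin) were saturated on all 23 arrays and are given no difference. Of 11 measured hepatocyte transcription factors, 10 were lower in CB (median -0.09) and 4 in DEP (median 0.05). Of 16 measured genes of corticosteroid and thyroid hormone transport, metabolism and response, 12 were lower in CB (median -0.04) and 10 in DEP (median -0.06), and of the 10 never saturated 7 and 4. Thrsp, a thyroid hormone-responsive gene of lipid synthesis, differed by -0.72 in CB and -0.66 in DEP (limma adjusted p = 0.621 and 0.997; saturated on 1 array).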

How the data were processed

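The deposited tables of 23 two-colour Agilent mouse arrays gave Cy5 and Cy3 intensity, an absent flag per channel and a log2 ratio for each of 22575 features. Per the study's methods the authors scanned the arrays, read the spots in ImaGene, and normalized each array by lowess in R 2.4.1 (submitters' processing notes), which gave the deposited log2 ratio. Here the deposited intensity was normalized within each array by loess without background subtraction, over 18688 features with 1 or more listed genes (3887 without were left out). CB, DEP and Air were fitted in 1 model with limma 3.58.1 in R 4.3.3, p-values were adjusted by Benjamini-Hochberg, and the threshold was 0.05. Each channel alone was quantile normalized. Every measured serpin was named; of each other list up to 3 genes with the lowest p could be. Members and lists were chosen with earlier results of these data known. Gene symbols and locations came from the platform annotation and RefSeq, where 6 of 7 accessions matched and Serpina10 was placed by its gene ID. On simulated data for CB against Air over the 18688 features, limma called 94 of 100 changes of 1 in log2 and 100 of 100 of 2. The changed features were drawn from all features, whose median SD within groups was 0.24. The serpins had an SD within groups of 0.32 to 1.19, and changes smaller than 1 were not simulated. These shares therefore give no recovery rate for the serpins. The number of arrays limits the precision. Alternatives covered the ratio's source, normalization, background, filter, batch, weights, channel and each mouse in turn. An Fs test stood in for the methods' test.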

Additional observations from a re-analysis of the deposited data

Results flagged for a closer look

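In 21 sets of 7 serpins by 3 groups, the highest and lowest mice were compared with the rest of their group by Dixon's ratio, and 3 values stood apart from the others. By chance about 1 in 20 groups is expected to hold such a value. In CB the log2 ratio of Serpina7 in mouse CB 445 was 5.37, where the next mouse was at 2.05. In the same mouse the log2 ratio of Serpina10 was 3.06, where the next was at 2.13. Its Serpina10 spot had a Cy5 of 1398, within the 577 to 1875.5 of the CB group, and a Cy3 of 184. The log2 ratio of Serpinc1 was 3.93 in CB 835436, the lowest of the group, where the next mouse was at 4.27. In that mouse Serpina6 (2.86), Serpind1 (3.77), Serpinf2 (4.30) and Serpina3n (4.06) were also the lowest of the CB group.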

How the results depend on the processing

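No paired analysis was possible because the groups share no mouse number. No serpin was called for DEP against Air or CB against DEP under any alternative run. With array set as a block the lowest limma adjusted p of a serpin for CB against Air was 0.121. For CB against Air 3 were called with median centring in place of loess, which moved the median of all features by -0.11 and called 285 features: Serpina6 at -0.85, Serpinc1 at -0.87 and Serpinf2 at -0.62. The count of features called for CB against Air was 50 in the last round alone, 1 with array weights, 1 in the Fs test and 0 to 1 with each mouse left out. For CB against DEP it was 100 in the last round. The last round held 1 CB mouse, CB 835436, so that its CB group had no spread between mice. The counts from that round therefore cannot tell CB exposure apart from that mouse or its array. The cause was not tested.

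Signs that turned were these. With Cy5 alone, CB against Air was 0.15 for Serpinc1, 0.10 for Serpinf2 and -0.35 for Serpind1, DEP against Air was 0.30 for Serpinc1 and 0.11 for Serpinf2, and CB against DEP was 0.0450 for Serpina10, 0.17 for Serpina3n, 0.33 for Serpina6 and -0.00486 for Serpinf2. With Cy5 scaled to its 75th percentile, added after seeing the data, CB against Air was 0.0790 for Serpinc1 and -0.24 for Serpind1, DEP against Air 0.0772 for Serpinc1, and CB against DEP 0.0211 for Serpina10, 0.20 for Serpina3n, 0.39 for Serpina6 and 0.00172 for Serpinc1. Serpina10 for CB against Air was -0.0203 in the deposited ratios, -0.14 with median centring, -0.15 with array set as a block, -0.34 in the second round and -0.0240 with array weights, and for DEP against Air -0.32 in the second round. Serpind1 for CB against Air was -0.24 with median centring, -0.10 with the array set block and -1.26 in the last round, and for CB against DEP -0.26 there. Serpinf2 for CB against DEP was -0.11 with median centring, -0.0371 with round and -0.000688 with array set as a block, -0.0789 in the second round and -0.34 in the last. With round as a block the Cy3 difference of DEP from Air was -0.0119 for Serpina10, -0.0188 for Serpina3n and -0.0234 for Serpina6.

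With each mouse left out in turn, the sign turned for these ranges. CB against Air ran from -0.14 to 0.11 for Serpina10 and -0.0205 to 0.20 for Serpind1, and DEP against Air from -0.0887 to 0.20 for Serpina10. CB against DEP ran from -0.23 to 0.11 for Serpina10, -0.13 to 0.0429 for Serpina3n, -0.18 to 0.0168 for Serpina6 and -0.0122 to 0.15 for Serpinf2. The Cy3 difference of CB from Air ran from -0.0270 to 0.0838 for Serpina10 and -0.42 to 0.14 for Serpind1. That of DEP from Air ran from -0.0334 to 0.0766 for Serpina10, -0.0687 to 0.0722 for Serpina3n, -0.0366 to 0.23 for Serpina6, -0.0490 to 0.52 for Serpinc1 and -0.45 to 0.19 for Serpind1. The rule for genes with several features had nothing to act on, since each serpin had 1. Saturated Cy5 spots limit Serpina6, Serpind1, Serpinc1 and Serpinf2. A reference near background limits Serpina7 and, on 2 arrays and 1 array, Serpina10 and Serpinc1.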

Other observations

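The features that ran most opposite to Serpina7 over the 23 mice were Gamt, which makes creatine (r = -0.84 and -0.83 on 2 features), and Acss2, which makes acetyl-CoA from acetate (r = -0.83). Acss2 had a log2 ratio of 1.35 to 2.34 in the 4 mice with the highest Serpina7 and of 2.73 to 3.70 in the other 19. On its first feature Gamt had 2.38 to 2.97 in those 4 mice and 3.29 to 3.92 in the others. Nothing in these mice was compared as a group, since they were picked by a measured value, and no test was made.

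Among the other serpins with a listed symbol, the lowest unadjusted p values were those of Serpinb1b, Serpinb9b and Serpina3a, and none passed the threshold. Serpinb1b differed between CB and Air by 0.40 (SE 0.11, limma adjusted p = 0.621), with Cy5 flagged absent on 9 of the 23 arrays. Serpina3a differed between DEP and Air by 0.30 (SE 0.13, limma adjusted p = 0.997), with 6 arrays flagged absent. Serpinb9b was flagged absent on all 23 and is given no difference.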
